A study of Arabidopsis thaliana with 12 samples.

Results

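This section describes the nuclear genes for the subunits and antenna proteins of the 2 photosystems in rosette leaves of Arabidopsis, 42 loci fixed by their identity and not by their expression. They are LHCA1 to LHCA6, the 14 LHCB genes from LHCB1.1 to LHCB6, the nuclear genes for photosystem I subunits (PSA) D, E, F, G, H, K, L, N and O, and those for photosystem II subunits (PSB) O, P, Q, R, S, W, X and Y. Of these, 41 are listed among the 23069 genes of the deposited table, and LHCB1.3 (AT1G29930) was not analysed here. RNA-seq compared leaves of 30-day-old kaku4-2 plants with leaves of 30-day-old WT plants of the Columbia accession, with 3 libraries each from separate biological samples. The kaku4-2 mutant carries a homozygous T-DNA insertion (SALK_076754) in KAKU4, a putative component of the plant nuclear lamina, and is a knockdown rather than a null. It is a single insertion line. The values are FPKM from Cufflinks, fragments per transcript length on a scale set for each library, and the scaling option is not given in the sources used here. In whole leaves, fewer cells of a type and less RNA per cell cannot be told apart.

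Photosystem II takes electrons from water, and photosystem I passes them on to ferredoxin. Each core is surrounded by chlorophyll-binding proteins of the light-harvesting complex (LHC) family, LHCA around photosystem I and LHCB mainly around photosystem II. The proteins of the reaction centres are encoded in the chloroplast, while the antenna and the peripheral subunits come from nuclear genes, are among the most abundant leaf mRNAs, and are controlled by light, the clock and signals from the plastid.

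Several of the LHCB genes are near-identical copies, which can limit how a 150-base read is assigned to its gene. The coding stretch in which the LHCB1 copies differ least is shown for this reason, with the coding position of its first and last base. In these 90 bases the 5 genes differ at 6 positions, which are in capitals. All sequences are from the RefSeq annotation of TAIR10.1, written 5′ to 3′ on the strand of the gene.
LHCB1.1 (AT1G29920, chromosome 1, gene 10474656 to 10475969, reverse strand, coding bases 604 to 693): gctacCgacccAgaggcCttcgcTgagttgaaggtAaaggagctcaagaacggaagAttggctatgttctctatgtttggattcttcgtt
LHCB1.2 (AT1G29910, chromosome 1, gene 10472280 to 10473502, reverse strand, coding bases 604 to 693): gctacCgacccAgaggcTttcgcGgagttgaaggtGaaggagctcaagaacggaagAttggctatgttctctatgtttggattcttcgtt
LHCB1.3 (AT1G29930, chromosome 1, gene 10477885 to 10479114, forward strand, coding bases 604 to 693): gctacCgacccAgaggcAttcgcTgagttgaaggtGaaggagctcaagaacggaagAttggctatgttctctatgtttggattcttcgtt
LHCB1.4 (AT2G34430, chromosome 2, gene 14524607 to 14525918, forward strand, coding bases 601 to 690): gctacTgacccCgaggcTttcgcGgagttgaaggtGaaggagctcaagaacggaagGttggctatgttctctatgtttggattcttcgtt
LHCB1.5 (AT2G34420, chromosome 2, gene 14522524 to 14523568, reverse strand, coding bases 598 to 687): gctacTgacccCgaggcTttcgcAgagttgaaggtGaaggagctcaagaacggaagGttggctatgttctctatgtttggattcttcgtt

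LHCB1.1, LHCB1.2 and LHCB1.3 lie next to each other on chromosome 1, and LHCB1.4 and LHCB1.5 lie next to each other on chromosome 2. Over the whole coding sequence, LHCB1.1 and LHCB1.3 were 96.1% identical, and 16.0% of their 150-base windows differed at no more than 2 positions. For LHCB1.4 and LHCB1.5 the identity was 91.4%, with 36.2% of windows at no more than 2 differences. LHCB2.1 and LHCB2.2 were the closest pair, with 96.6% identity, 47.6% of windows at no more than 2 differences and 3 windows without any. The identical run behind those 3 windows, 152 bases long and so longer than a read, is shown once for both genes.
LHCB2.1 (AT2G05100, chromosome 2, gene 1822990 to 1824480, reverse strand) and LHCB2.2 (AT2G05070, chromosome 2, gene 1799234 to 1800472, reverse strand), coding bases 643 to 794 of each: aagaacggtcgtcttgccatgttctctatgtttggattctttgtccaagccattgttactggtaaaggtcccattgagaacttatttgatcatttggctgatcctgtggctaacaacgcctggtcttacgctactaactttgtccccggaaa
The levels of single LHCB1 copies and of LHCB2.1 and LHCB2.2 may therefore be less certain than their sums. No LHCB1 pair shared an identical 150-base window. Only coding sequence and single reads were looked at, not read pairs. No 150-base window of the paralogs of LHCB4, PSAD, PSAE, PSAH, PSBO or PSBQ came within 2 differences.

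The 41 genes together made up 14.7%, 14.7% and 16.8% of the FPKM sum in kaku4-2 replicates 1, 2 and 3, against 14.9%, 15.7% and 14.7% in WT replicates 1, 2 and 3. The mean share was 15.4% ± 1.21 in kaku4-2 and 15.1% ± 0.529 in the WT (SD, n = 3 each), and the ranges overlapped. Among the 4 families, the LHCB genes held most, 5.79%, 5.81% and 7.72% of the sum in the kaku4-2 libraries and 6.17%, 6.78% and 5.92% in the WT libraries. The LHCA genes held 1.4%, 1.32% and 1.86% in the kaku4-2 libraries and 1.33%, 1.15% and 1.03% in the WT libraries. The shares of the PSA genes, between 3.88% and 4.13%, and of the PSB genes, between 3.30% and 3.83%, differed little among the 6 libraries. A share is free of the scale of a library, which the FPKM level is not. The FPKM sums were 1245643, 1285627 and 829805 in the kaku4-2 libraries and 1298744, 1530891 and 1767459 in the WT libraries, so the totals of the genotypes did not overlap and those of kaku4-2 were lower.

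KAKU4 (AT4G31430) was at 0.402, 0.433 and 0.313 FPKM in the kaku4-2 libraries, against 2.69, 3.61 and 2.51 FPKM in the WT libraries, lower in every library labelled kaku4-2. Summed mesophyll markers (RBCS1A, CA1, RCA and the member LHCB1.2) ranged from 21000 to 24000 FPKM in kaku4-2 and from 26000 to 34300 FPKM in the WT. The vascular markers summed to between 131 and 134 FPKM in kaku4-2 and between 161 and 184 FPKM in the WT, with no list member at 0. The sums of the guard cell markers (19.9 to 27.6 FPKM in kaku4-2, 21 to 23.7 FPKM in the WT) and of the epidermal markers (76.0 to 132 FPKM in kaku4-2, 104 to 154 FPKM in the WT) overlapped. Of the root hair markers only EXPA18 is listed, at 0 in every library but WT replicate 2, and the flower markers summed to no more than 4.05 FPKM in any library. Without LHCB1.2, itself a member, the mesophyll sums overlapped, at 9300 to 11100 FPKM in kaku4-2 and 10800 to 14200 FPKM in the WT, as did the vascular sums without SWEET11, at 52.3 to 70.4 FPKM in kaku4-2 and 54.1 to 71.6 FPKM in the WT. The part of these cell types in the results was not tested.

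**Figure D1:**
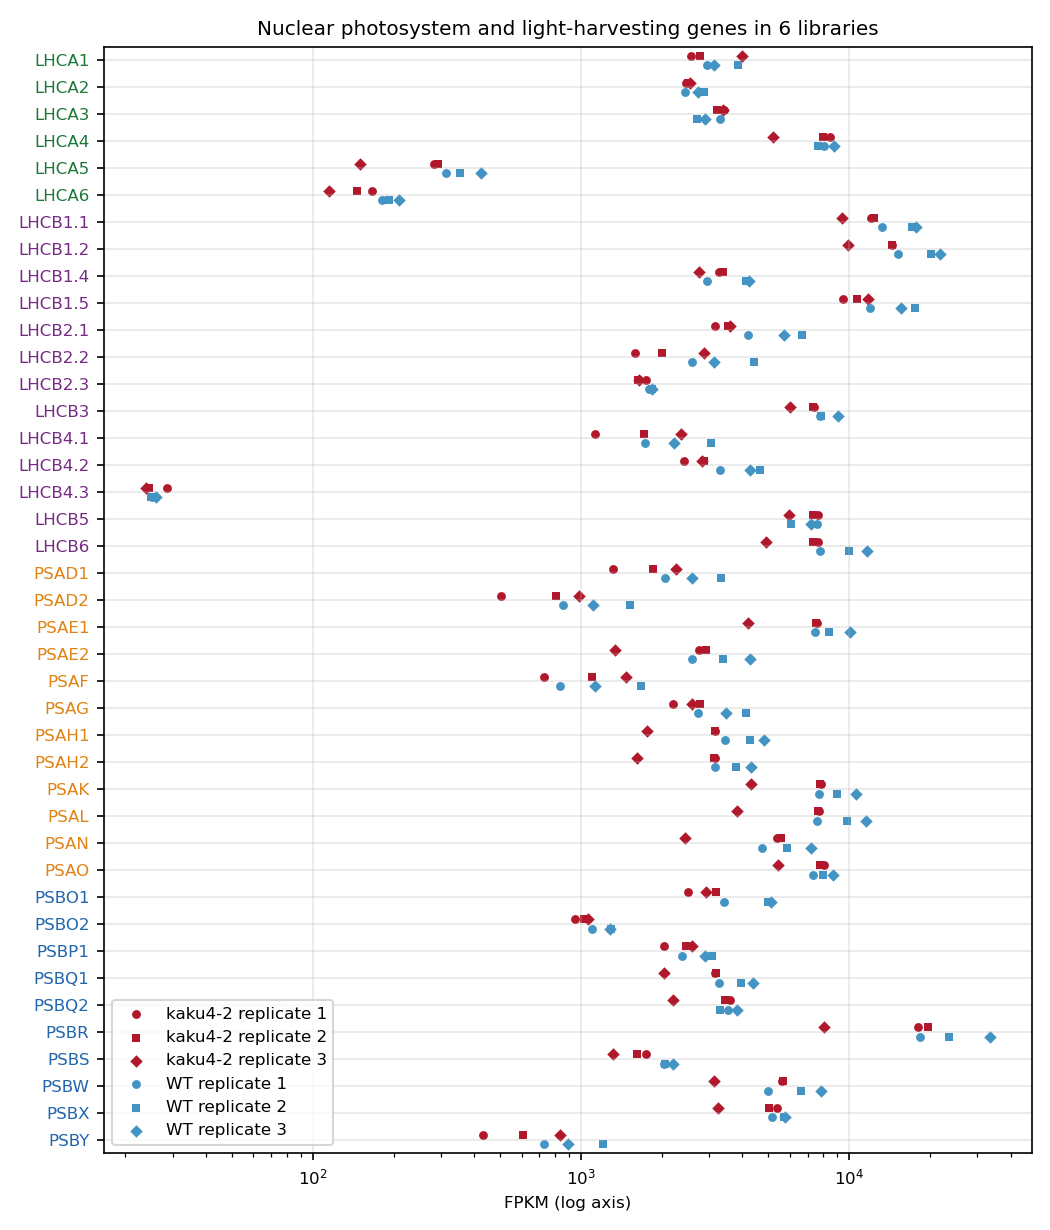
FPKM on a log axis of the 41 listed genes (rows, coloured by family: green LHCA, purple LHCB, orange PSA, blue PSB) in kaku4-2 replicates 1 to 3 (red, upper points of a row) and WT replicates 1 to 3 (blue, lower points), with the replicate given by the shape. PSBR, LHCB1.2, LHCB1.1 and LHCB1.5 were the most abundant and LHCB4.3 the least; for 16 genes all red points lie left of all blue points.

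None of the 41 genes passed the cutoff used in the study, which asks for a ratio of the median FPKM past 0.6 on the log2 scale and a P-value no larger than 0.05 before adjustment, in either direction. Of all 20638 genes tested, 1370 passed it downward (6.64%) and 1037 upward (5.02%). The P-value here came from limma, and the study does not name the test behind its own. With that cutoff the study reported more genes upward than downward, and its calls for these genes were not compared here. No member had an adjusted p of at most 0.05 either, against 99 of all genes (0.480%; limma on log2(FPKM + 0.1), two-sided, Benjamini-Hochberg adjustment over all genes), and none had an unadjusted p of at most 0.05, against 15.0% of all genes. The smallest unadjusted p of a member was 0.0741 and the smallest adjusted p 0.353. The fitted values nevertheless lay to the same side for most members. The log2 fold change was negative for 38 of the 41 genes (51.1% of all genes), with a median of -0.47, while the median over all genes was -0.02. Other genes of like abundance were displaced further: of the 168 non-member genes with a mean of at least 1000 FPKM, 161 had a negative log2 fold change, with a median of -0.67. Only the members were left out of these 168, which still hold other nuclear genes of the light reactions, such as PSBTN, PETE2 and FD1. The 36 members above the same level had a median of -0.46. The cutoff was passed downward by 21 of the 168 genes (12.5%) and by 0 of these 36 members.

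All 3 kaku4-2 libraries lay below all 3 WT libraries for 16 of the 41 genes, against 15.0% of all genes, and for none did they all lie above (7.92% of all genes). For the other 168 abundant genes the share that lay below was 34.5%, close to the 39.0% of the members. The 95% intervals of the members' log2 fold changes reached from 0.55 to 1.24 to each side, and differences below about that size were not resolved by this fit. The fit draws the variance of a gene toward that of genes of like abundance, so these widths do not measure a member's own spread alone. LHCB2.3 had an SE of 0.34, with an SD of 64.3 FPKM around 1680 FPKM in kaku4-2 and of 29.3 FPKM around 1824 FPKM in the WT.

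**Figure D2:**
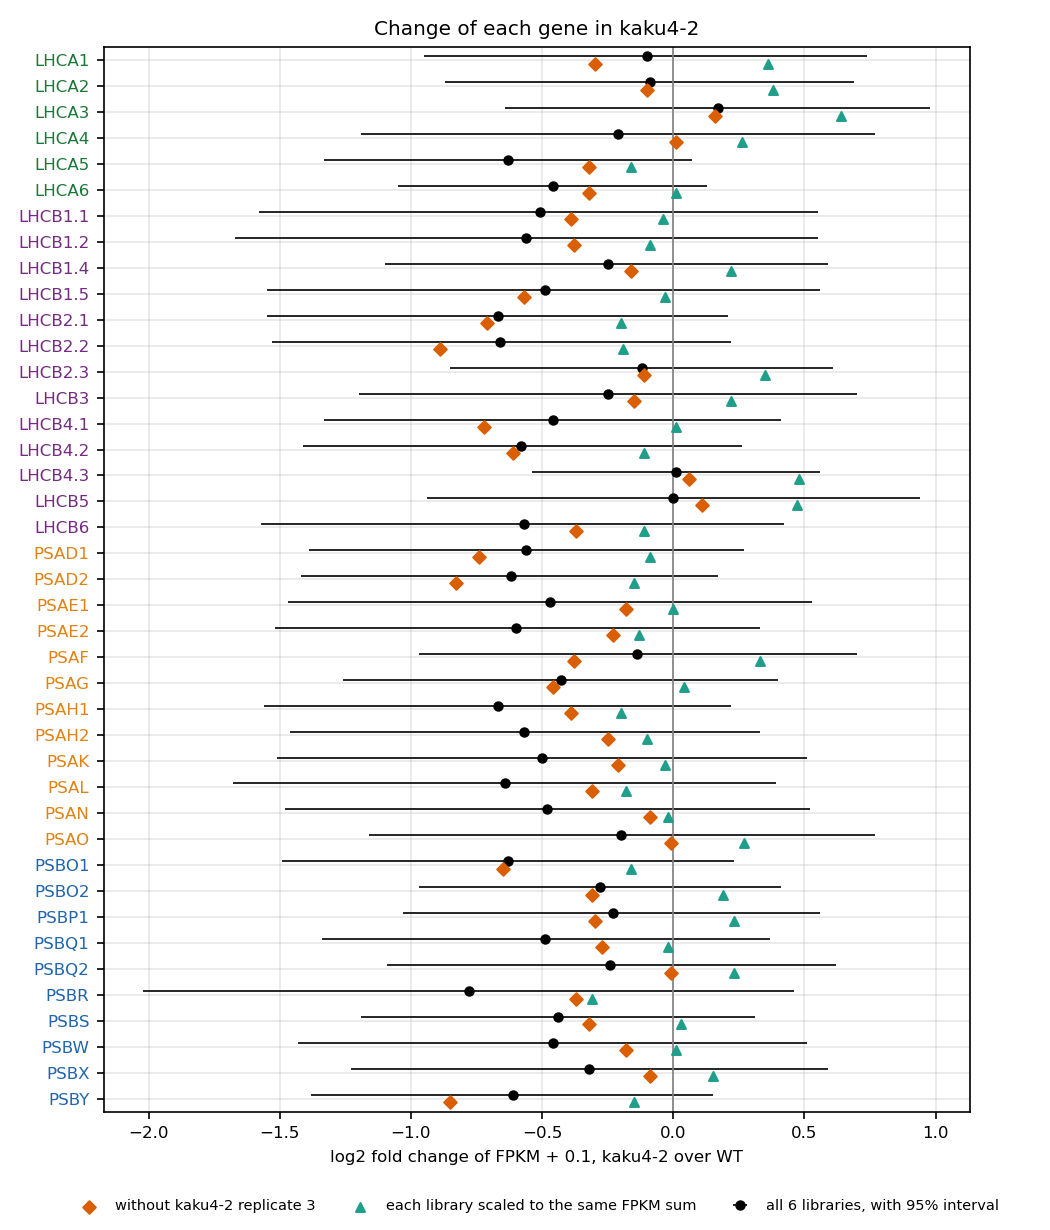
Log2 fold change of FPKM + 0.1, kaku4-2 over WT, for each gene (rows), with its 95% interval from the fit of all 6 libraries (black), without kaku4-2 replicate 3 (orange diamonds), and with every library scaled to the same FPKM sum (green triangles). Every black interval includes 0, from PSBR at -0.78 to LHCA3 at 0.17, and the green points lie on both sides of 0.

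Among the antenna proteins of photosystem I, LHCA1 to LHCA4 bind the core as a belt of dimers, and LHCA5 and LHCA6 link photosystem I to the NADH dehydrogenase-like (NDH) complex of cyclic electron flow. LHCA4 was the most abundant of them, at 8490, 8013 and 5192 FPKM in kaku4-2 replicates 1, 2 and 3, against 8093, 7676 and 8791 FPKM in the WT replicates. Only kaku4-2 replicate 3 was low, and the genotypes overlapped (log2 fold change -0.21, SE 0.45). LHCA1, LHCA2 and LHCA3 also overlapped, with log2 fold changes of -0.10, -0.09 and 0.17. LHCA3 had the highest log2 fold change of the 41 genes, at 3402, 3222 and 3393 FPKM in kaku4-2 and 3305, 2711 and 2890 FPKM in the WT.

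The pair of linker genes differed from the other 4 in level and in separation. LHCA6, the least abundant LHCA gene, was at 166, 146 and 115 FPKM in kaku4-2 and 181, 193 and 209 FPKM in the WT. LHCA5 was at 284, 294 and 150 FPKM in kaku4-2 and 314, 353 and 422 FPKM in the WT. For both, all kaku4-2 libraries were below all WT libraries. The log2 fold change was -0.46 (SE 0.27, adjusted p = 0.387 from limma) for LHCA6 and -0.63 (SE 0.33, adjusted p = 0.353 from limma) for LHCA5, which had the smallest p of all members.

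LHCB1, LHCB2 and LHCB3 form the trimers of the major antenna, LHCII. LHCB1.2 was the most abundant LHCB gene, at 14476, 14461 and 9881 FPKM in kaku4-2 and 15170, 20124 and 21766 FPKM in the WT. The WT libraries were all higher, but WT replicate 1 exceeded kaku4-2 replicates 1 and 2 only slightly (log2 fold change -0.56, SE 0.52). LHCB1.1 and LHCB1.5 were also higher in every WT library than in any kaku4-2 library. LHCB1.1 was at 9432 to 12378 FPKM in kaku4-2 against 13291 to 17792 FPKM in the WT. LHCB1.5 was at 9470 to 11748 FPKM in kaku4-2 against 11971 to 17648 FPKM in the WT. LHCB1.4 overlapped, with 2749 to 3394 FPKM in kaku4-2 and 2954 to 4225 FPKM in the WT.

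In the LHCB2 family, whose proteins are phosphorylated in state transitions, LHCB2.1 was at 3156, 3520 and 3607 FPKM in kaku4-2 and 4195, 6695 and 5724 FPKM in the WT (log2 fold change -0.67, SE 0.41, adjusted p = 0.398 from limma). Its near-copy LHCB2.2 was at 1594, 2006 and 2883 FPKM in kaku4-2 and 2591, 4429 and 3146 FPKM in the WT, where kaku4-2 replicate 3 was above WT replicate 1. LHCB2.3 was at 1754, 1636 and 1649 FPKM in kaku4-2 and 1790, 1839 and 1842 FPKM in the WT. The libraries of LHCB2.3 thus separated, but by a log2 fold change of only -0.12 (SE 0.34). LHCB3, at 6027 to 7414 FPKM in kaku4-2 and 7797 to 9062 FPKM in the WT, also separated, with a log2 fold change of -0.25.

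LHCB4 (CP29), LHCB5 (CP26) and LHCB6 (CP24) are the minor antenna proteins between the trimers and the core of photosystem II. LHCB4.2 was at 2432, 2886 and 2832 FPKM in kaku4-2 and 3290, 4669 and 4287 FPKM in the WT, without overlap (log2 fold change -0.58, SE 0.39). LHCB4.1 was at 1127, 1712 and 2361 FPKM in kaku4-2 and 1740, 3066 and 2229 FPKM in the WT and overlapped. LHCB4.3, the least abundant of all members, was at 28.6, 24.5 and 23.9 FPKM in kaku4-2 and 25.1, 25.0 and 26.0 FPKM in the WT, a log2 fold change of 0.01 (95% interval -0.54 to 0.56). LHCB5 was likewise near 0, at 0.00 (95% interval -0.94 to 0.94). LHCB6 was at 7672, 7326 and 4917 FPKM in kaku4-2 and 7807, 10004 and 11685 FPKM in the WT, with WT replicate 1 just above the highest kaku4-2 library. Of the 13 LHCB genes, 8 lay below the WT in every kaku4-2 library (15.0% of all genes), the most of the 4 families. A negative log2 fold change was found for 11 (51.1% of all genes). As a share of the FPKM sum, every LHCB gene overlapped between the genotypes.

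All 12 PSA genes had negative log2 fold changes (51.1% of all genes), between -0.67 and -0.14, with a median of -0.53. Only PSAH1 and PSAH2 separated the genotypes (15.0% of all genes lay below). PSAL, which with PSAH and PSAO lies where LHCII docks on photosystem I, was the most abundant, at 7692, 7661 and 3828 FPKM in kaku4-2 and 7589, 9830 and 11555 FPKM in the WT. Its kaku4-2 replicates 1 and 2 were level with WT replicate 1, and replicate 3 was far below them (log2 fold change -0.64, SE 0.48). PSAH1 was at 3154, 3154 and 1760 FPKM in kaku4-2 and 3431, 4261 and 4821 FPKM in the WT (log2 fold change -0.67, SE 0.41). For PSAH2, WT replicate 1 at 3174 FPKM was barely above kaku4-2 replicate 1 at 3165 FPKM. PSAE1, PSAK, PSAL, PSAN and PSAO all had kaku4-2 replicate 3 as the lowest library and the other kaku4-2 libraries within or above the WT range.

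PSAD and PSAF, at the ferredoxin and plastocyanin sides of photosystem I, followed another order. PSAD2, the least abundant PSA gene, was at 501, 806 and 985 FPKM in kaku4-2 and 859, 1518 and 1112 FPKM in the WT. Here kaku4-2 replicate 1 was the lowest library and WT replicate 2 the highest (log2 fold change -0.62, SE 0.37). PSAD1 gave the same order of the 6 libraries, at 1322, 1860 and 2269 FPKM in kaku4-2 and 2061, 3329 and 2602 FPKM in the WT. PSAF was at 725, 1103 and 1474 FPKM in kaku4-2 and 837, 1670 and 1126 FPKM in the WT, with a log2 fold change of -0.14.

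All 10 PSB genes had negative log2 fold changes as well (51.1% of all genes), between -0.78 and -0.23. PSBR, which is associated with the oxygen-evolving complex, was the most abundant gene of the set, at 18063, 19627 and 8067 FPKM in kaku4-2 and 18347, 23579 and 33482 FPKM in the WT. It also had the most negative log2 fold change, -0.78, with the largest error (SE 0.58, adjusted p = 0.469 from limma), since kaku4-2 replicate 3 and WT replicate 3 stood far from the others in opposite directions. PSBO, PSBP and PSBQ are the extrinsic proteins that shield the manganese cluster. PSBO1, the main PSBO gene, was at 2515, 3184 and 2922 FPKM in kaku4-2 and 3428, 4981 and 5093 FPKM in the WT (log2 fold change -0.63, SE 0.40, adjusted p = 0.409 from limma). PSBO2 was at 950, 1026 and 1058 FPKM in kaku4-2 and 1103, 1299 and 1278 FPKM in the WT. Both PSBO genes separated the genotypes.

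PSBQ1 separated them narrowly, at 3161, 3177 and 2039 FPKM in kaku4-2 and 3264, 3947 and 4367 FPKM in the WT. PSBQ2 did not, at 3597, 3441 and 2207 FPKM in kaku4-2 and 3525, 3306 and 3831 FPKM in the WT. PSBS, the sensor of lumen acidity in energy-dependent quenching, was at 1752, 1624 and 1311 FPKM in kaku4-2 and 2045, 2065 and 2213 FPKM in the WT. It separated the genotypes with a log2 fold change of -0.44 (SE 0.35). PSBY, the least abundant PSB gene, was at 431, 607 and 838 FPKM in kaku4-2 and 725, 1212 and 895 FPKM in the WT, the same order of libraries as PSAD1 and PSAD2. PSBP1, PSBW and PSBX overlapped, with log2 fold changes of -0.23, -0.46 and -0.32.

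The order of the 6 libraries took 2 main forms. For 24 of the 41 genes kaku4-2 replicate 3 was the lowest of all 6 libraries (37.0% of all genes; 156 of the 168 other abundant genes), and for 24 WT replicate 3 was the highest. Genes in both counts included LHCA4, LHCB6, PSAE1, PSAE2, PSAH1, PSAH2, PSAK, PSAL, PSAN and PSBR. For 14 others kaku4-2 replicate 1 was the lowest, among them LHCB2.1, LHCB2.2, LHCB4.1, LHCB4.2, PSAD1, PSAD2, PSAF, PSAG, PSBO1, PSBO2 and PSBY, and WT replicate 2 was the highest for 13. WT replicate 1 was the lowest WT library for 36 genes. With this library set aside, after its values were seen, 32 of the 41 genes had every kaku4-2 library below the other WT libraries (26.4% of all genes; 143 of the 168 other abundant genes). The difference between kaku4-2 replicates 2 and 1 ran with the difference between WT replicates 2 and 1 across the 41 genes (Pearson r = 0.85, Spearman rho = 0.88), and hardly did so across 20468 genes (r = 0.12, rho = 0.26). The genes thus shared a contrast inside both genotypes. This correlation was not computed for the 168 other abundant genes, so whether it is particular to the members was not examined. These are descriptions over genes, which share their libraries and are not independent replicates.

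Within kaku4-2, replicate 3 differed from replicates 1 and 2 by transcript length, a comparison made for no other library. Set against the mean of kaku4-2 replicates 1 and 2, its log2 value differed by -1.09 for PSAE2, whose transcript has 607 bases, by -1.22 for PSBR (784 bases) and by -1.17 for PSAN (1018 bases). The difference was 0.77 for LHCB4.1 (1396 bases) and 0.05 for PSBO1, the longest at 1508 bases. Other genes went against this order, among them PSAG (780 bases, 0.08), PSAD2 (956 bases, 0.63), PSAH1 (1300 bases, -0.84), LHCA4 (1295 bases, -0.67) and LHCB6 (1204 bases, -0.61). Across the 41 genes this difference rose with log2 transcript length (Pearson r = 0.51, Spearman rho = 0.51), and across 20468 genes with r = 0.62 and rho = 0.67. Its median was -0.33 over the 41 genes (median length 1182 bases), -1.09 over the 168 other abundant genes (907 bases) and -0.02 over all genes (1610 bases).

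**Figure D3:**
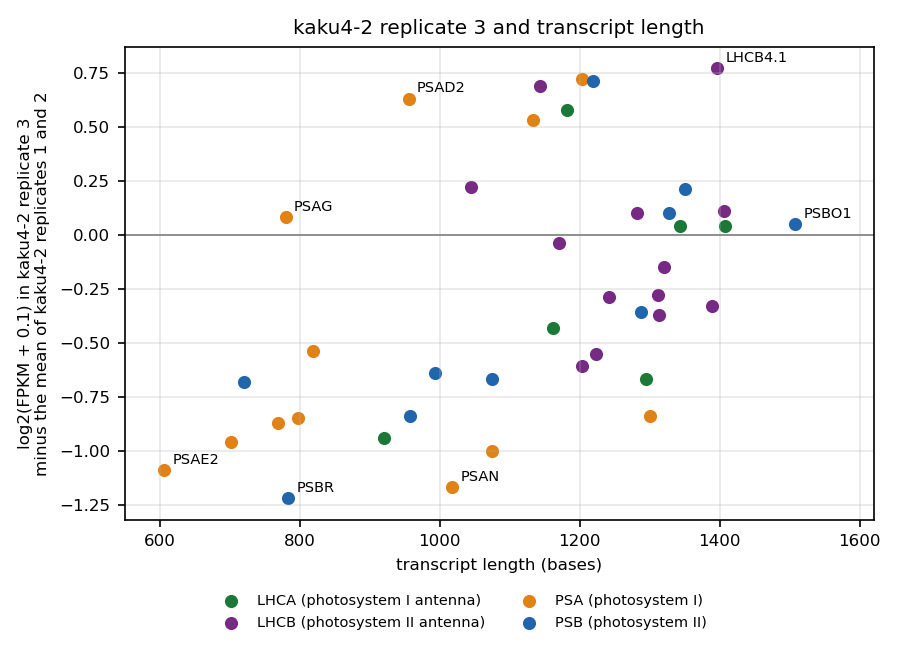
Difference of log2(FPKM + 0.1) between kaku4-2 replicate 3 and the mean of kaku4-2 replicates 1 and 2 (vertical axis) against transcript length in bases (horizontal axis) for the 41 genes, coloured by family. Short transcripts such as PSAE2 (-1.09) and PSBR (-1.22) lie low, and 16 genes, most of them longer than 1000 bases, lie above 0.

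Without kaku4-2 replicate 3, 8 of the 41 genes passed the cutoff downward: LHCB2.1, LHCB2.2, LHCB4.1, LHCB4.2, PSAD1, PSAD2, PSBO1 and PSBY. This was 19.5% of the members, against 6.66% of all genes and 13.7% of the 168 other abundant genes. Their log2 fold changes in that fit lay between -0.89 (LHCB2.2, SE 0.27) and -0.61 (LHCB4.2, SE 0.24), with adjusted p between 0.142 and 0.279 from limma. All 8 are among the genes above with kaku4-2 replicate 1 at the bottom. Kaku4-2 replicates 1 and 2 both lay below all WT libraries for 22 members (20.7% of all genes, and 62 of the 168 other abundant genes). The median over the 41 genes was then -0.31, equal to that of the other abundant genes.

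The direction of the whole set depended on the scale of the libraries. When every library was brought to the same FPKM sum, as for TPM, the median log2 fold change over the members was 0.002, with 20 genes negative, while the median of all genes moved to 0.41. The median of the members minus that of all genes was -0.41 on this scale and -0.44 on the deposited scale, but 0.06 with quantile normalization and -0.07 with the length trend of each library removed. On this scale LHCA3 passed the cutoff upward (log2 fold change 0.64, SE 0.24, unadjusted p = 0.0222 and adjusted p = 0.318 from limma), where 2335 of all genes (11.3%) passed upward and 297 (1.44%) downward. By the share of the FPKM sum, LHCA5 and PSAH1 lay below the WT in every kaku4-2 library (6.01% of all genes), and LHCA2, LHCA4 and PSAO lay above (16.4% of all genes). Scaling to equal sums and leaving out kaku4-2 replicate 3 gave a median of -0.05 over the members and 0.19 over all genes, with none of the members past the cutoff (2.15% of all genes downward). With the length trend of each library removed, the medians were -0.07 over the members and 0.00 over all genes, and LHCB2.1 and PSBO1 passed downward (5.58% of all genes), with adjusted p of 0.224 and 0.202 from limma. That centring called 1142 genes lower and 1388 higher in all.

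**Figure D4:**
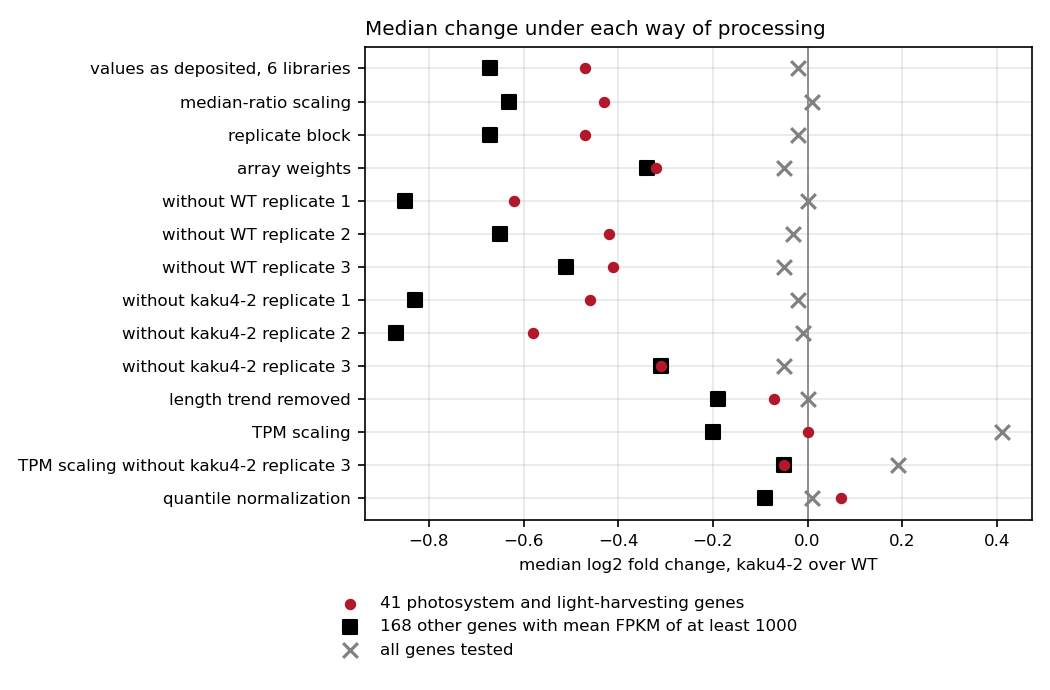
Median log2 fold change, kaku4-2 over WT, of the 41 genes (red), of 168 other genes with a mean of at least 1000 FPKM (black) and of all genes tested (grey crosses), under each way of processing (rows). On the deposited scale the members lie at -0.47, between the other abundant genes at -0.67 and all genes at -0.02; with equal FPKM sums they lie at 0.002 and with quantile normalization at 0.07.

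The ratio of paralogs within a library does not depend on its scale, and was compared for 10 pairs. In 3 of them the ratio did not overlap between the genotypes. PSBO1 over PSBO2 was at log2 ratios of 1.4, 1.63 and 1.47 in kaku4-2 and 1.64, 1.94 and 1.99 in the WT, a difference of -0.35. LHCB2.3 over LHCB2.1 was at -0.85, -1.11 and -1.13 in kaku4-2 and -1.23, -1.86 and -1.64 in the WT, a difference of 0.55. The LHCB2.1 level in it rests in part on reads that are hard to tell from those of LHCB2.2. PSBQ1 over PSBQ2 was at -0.19, -0.12 and -0.11 in kaku4-2 and -0.11, 0.26 and 0.19 in the WT, a difference of -0.25, where the nearest libraries of the genotypes were equal to 2 decimals. In each of these pairs the copy that was relatively lower in kaku4-2 was PSBO1, LHCB2.1 or PSBQ1. Each of the 3 had p = 0.10 in the exact permutation test (two-sided, 3 against 3 libraries), the smallest that it allows, and 0.333 after Benjamini-Hochberg adjustment over the 10 pairs. WT replicate 1 was the WT library nearest to kaku4-2 in all 3.

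The ratios of PSAD1 to PSAD2 (mean 1.27 ± 0.11 in kaku4-2, 1.21 ± 0.07 in the WT, SD, n = 3 each) and of PSAH1 to PSAH2 (0.04 ± 0.07 in kaku4-2, 0.14 ± 0.03 in the WT) varied little, and both overlapped. LHCB4.1 over LHCB4.2 varied more within kaku4-2 (-1.11, -0.75 and -0.26) than between the genotype means (-0.71 in kaku4-2 and -0.82 in the WT). The ratios of LHCB2.1 to LHCB2.2 and of LHCB1.4 to LHCB1.5 overlapped as well. LHCB2.1 and LHCB2.2 share a run longer than a read. LHCB1.4 and LHCB1.5 share windows with no more than 2 differences but no identical one. How their reads were assigned was not examined.

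**Figure D5:**
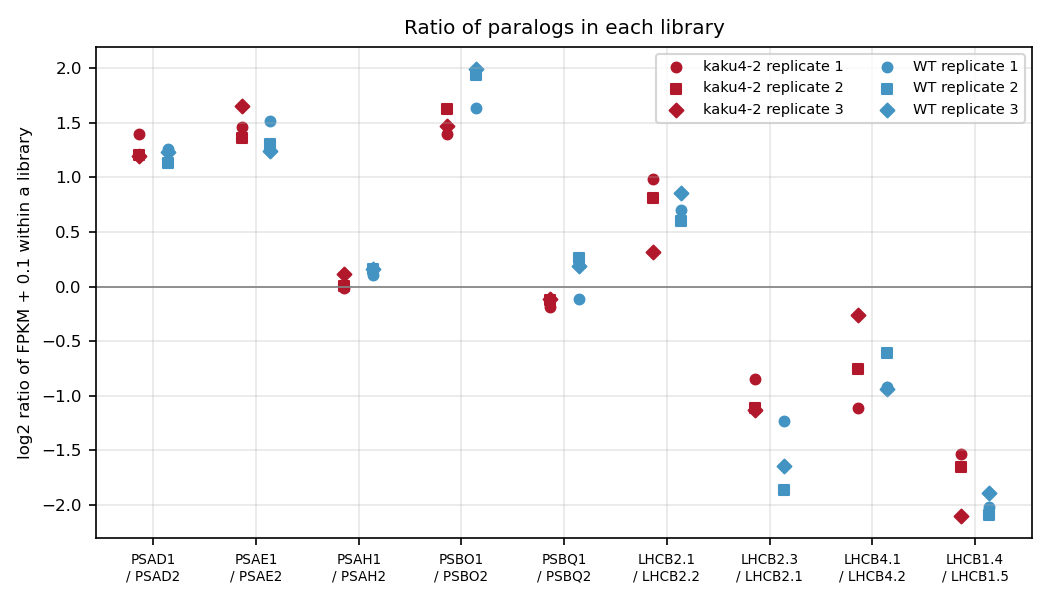
Log2 ratio of FPKM + 0.1 of 9 pairs of paralogs within each library (vertical axis), in kaku4-2 (red, left) and the WT (blue, right), with the replicate given by the shape. PSBO1/PSBO2 and PSBQ1/PSBQ2 are lower in kaku4-2 and LHCB2.3/LHCB2.1 is higher, without overlap; the pair LHCB4.3/LHCB4.1, at -5.29 to -6.93, overlapped and is not drawn.

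The promoters were searched for short motifs because the genes shared a pattern across libraries. Within 250 bases before the annotated start, on both strands, the G-box CACGTG, the core bound by HY5 and PIF factors, was found in 8 of the 42 promoters (19.0%), against 6.5% of 27443 promoters. The I-box core GATAA was in 76.2% of the members' promoters (54.8% of all) and CCAAT in 69.0% (45.8% of all). The W-box core TTGAC, bound by WRKY factors, was in 28.6% (44.7% of all). The evening element AAAATATCT was in none (2.3% of all), and the CCA1 site AAAAATCT in 11.9% (6.6% of all). The G-box windows of the genes in the PSBQ and LHCB2 ratios and of LHCB4.1 are shown, with the G-box in capitals, in TAIR10.1 coordinates.
PSBQ1 (chr4:11334280-11334319, forward strand): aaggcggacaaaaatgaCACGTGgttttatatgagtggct
PSBQ2 (chr4:2673298-2673337, reverse strand): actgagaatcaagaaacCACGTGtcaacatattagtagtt
LHCB2.3 (chr3:10255801-10255840, forward strand): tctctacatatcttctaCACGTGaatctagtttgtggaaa
LHCB4.1 (chr5:208775-208814, forward strand): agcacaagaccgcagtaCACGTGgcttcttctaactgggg
Both PSBQ genes held 2 copies, and LHCB2.1 held none. The 8 genes with a G-box had a median log2 fold change of -0.47 and the 33 without it -0.47, and a match is a description of letters, not of a bound site.

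Other nuclear genes of the light reactions were described by lists. Of 65 such genes in 4 lists, 9 passed the cutoff, 7 downward and 2 upward (6.64% and 5.02% of all genes). With libraries scaled to equal sums, 1 passed downward and 5 upward (1.44% and 11.3% of all genes). The 9 LHC-like genes, stress-induced or assembly-related relatives of the antenna, all had negative log2 fold changes, with a median of -0.80, and 4 passed downward (6.64% of all genes). ELIP1, an early light-induced protein thought to protect against excess light, was at 17.5, 19.8 and 10.8 FPKM in kaku4-2 and 49.0, 54.7 and 62.5 FPKM in the WT. It fell in kaku4-2 with a log2 fold change of -1.82 (adjusted p = 0.0124 from limma), and by -1.36 with libraries scaled to equal sums. ELIP2, SEP2 and LIL3.1 also passed the cutoff downward, with log2 fold changes of -1.05, -1.14 and -0.68 and adjusted p of 0.198, 0.239 and 0.296 from limma; with equal sums ELIP1 alone of the 4 passed.

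Among 14 genes of electron transport and the ATP synthase (median -0.39), the largest change was that of FD1, a ferredoxin, at 1050, 1060 and 874 FPKM in kaku4-2 and 1710, 1940 and 2020 FPKM in the WT. It passed the cutoff with a log2 fold change of -0.93 (adjusted p = 0.261 from limma). The main leaf ferredoxin, FD2, did not, at -0.15, and FNR2, a ferredoxin-NADP reductase, passed upward at 0.65 (adjusted p = 0.331 from limma). Of 13 NDH genes (median -0.69), 10 lay below the WT in every kaku4-2 library (15.0% of all genes), PNSB2 passed downward at -0.97 and PNSB1 upward at 0.71 (6.64% and 5.02% of all genes). Without kaku4-2 replicate 3, FNR2 and PNSB1 no longer passed. PNSB2 was at 241, 242 and 117 FPKM in kaku4-2 and 293, 385 and 454 FPKM in the WT. Of 29 genes of assembly, targeting and repair (median -0.16), only STN8, a thylakoid protein kinase, passed, at -0.82. With equal sums FD1, PNSB2 and STN8 no longer passed, at -0.46, -0.50 and -0.36. The largest value there was that of CPSRP54, a targeting factor for antenna proteins, at 1.1, which did not pass, with kaku4-2 replicate 3 far above the rest (34.7 FPKM, against 6.30 and 7.91 FPKM in the other kaku4-2 libraries and 6.81, 6.81 and 3.67 FPKM in the WT).

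Of 20 known regulators of light-harvesting genes, 19 were tested, with a median of 0.03, and 4 passed the cutoff downward (6.64% of all genes) and 1 upward (5.02%). The largest change was that of GLK1, a transcription factor that drives photosystem and chlorophyll genes in Arabidopsis. It was at 55.5, 75.7 and 98.6 FPKM in kaku4-2 and 152, 268 and 199 FPKM in the WT, without overlap (log2 fold change -1.43, adjusted p = 0.0686 from limma, and -0.96 with equal sums). GLK1 had kaku4-2 replicate 1 as the lowest library and WT replicate 2 as the highest, as PSAD1, PSAD2 and PSBY did. Its partner GLK2 passed at -0.90, GNC, a GATA factor, at -0.95 and GUN4, an activator of chlorophyll synthesis, at -0.92, with adjusted p of 0.281, 0.209 and 0.214 from limma. Of these 4 only GLK1 passed with equal sums. GLK2 and GNC did not share the library order of GLK1. Both had kaku4-2 replicate 3 as the lowest library and WT replicate 3 as the highest. GUN4 had kaku4-2 replicate 3 as the lowest and WT replicate 2 as the highest. PRR9, a clock component, passed upward at 1.29 (adjusted p = 0.217 from limma), with 12, 7.38 and 13.7 FPKM in kaku4-2 and 8.13, 2.76 and 3.51 FPKM in the WT. HY5, a light-signalling factor that binds the G-box, was at 21.8, 22.9 and 16.9 FPKM in kaku4-2 and 28.1, 23.4 and 31.6 FPKM in the WT, a log2 fold change of -0.43 that did not pass. These genes other than GLK1 were named after their values were seen.

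Of 20 photosystem subunits of the chloroplast genome, 11 are listed. How fully these libraries captured chloroplast transcripts was not tested. Their values are therefore not levels to set beside those of the nuclear genes. PSBD was at 154, 147 and 103 FPKM in kaku4-2 and 152, 105 and 118 FPKM in the WT. PSBA, for the D1 protein, was at 59.6, 55.0 and 24.5 FPKM in kaku4-2 and 51.9, 46.0 and 56.8 FPKM in the WT. PSAA was at no more than 1.08 FPKM. PSAC was listed at 0 in kaku4-2 replicates 1 and 3 and in WT replicate 2, and PSBH at 0 in every library but WT replicate 1. Only PSBB, at 11.4, 11.7 and 6.73 FPKM in kaku4-2 and 12.9, 16.5 and 16.0 FPKM in the WT, lay lower in every kaku4-2 library.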

How the data were processed

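RNA-seq of 6 leaf libraries was analysed, and the ChIP-seq libraries of the series were not analysed here. Per the labels and the study's methods, the authors aligned 150-base paired-end reads to TAIR10 with TopHat2 2.0.9 and deposited FPKM per gene from Cufflinks. The Cufflinks version, its library scaling, the annotation and the use of strand are not given in the sources used here.

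The filter kept genes whose mean reached 0.1 FPKM. Values were tested two-sided as log2(FPKM + 0.1) in limma (version 3.58.1, R version 4.3.3), letting the prior variance follow the mean. The added 0.1 hardly touches genes of these levels. Counts could not be recovered, since no more than 23.4% to 27.5% of the low values came to whole fragments within a tolerance of 0.03 (6.0% by chance). The spacing gave divisors of 24800000, 24200000 and 32000000 in the kaku4-2 replicates and 24300000, 20600000 and 19300000 in the WT replicates. By these, every member rested on an estimated 531 fragments or more in each library. The study lists nearly equal numbers of mapped reads for the 6 libraries, so the divisors hold a library scale and are not numbers of sequenced fragments. Transcript lengths, coding sequences and promoters came from the RefSeq annotation of TAIR10.1, in which all 42 loci matched, with the isoform of lowest accession for each gene. The TAIR10.1 nuclear chromosomes are taken as those of TAIR10, and no coordinate comes from the deposited table.

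The members and lists were chosen with earlier results of these data known. Values in all libraries were given for the most and least abundant gene of each family, genes of paralog pairs whose ratio separated the genotypes, and the largest change or an adjusted p of at most 0.05 in other lists; the other genes named were chosen after their values were seen. Tried as alternatives were a pseudocount of 1 or 0.01, no filter or a mean of at least 1 FPKM, median-ratio, equal-sum (TPM) and quantile scaling, removal of the length trend, another prior variance, array weights, a replicate block, a fold from mean FPKM, and each library left out. Equal-sum or median-ratio scaling without kaku4-2 replicate 3 was added after the data were seen.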

Additional observations from a re-analysis of the deposited data

How the results depend on the processing

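The count of 0 members past the cutoff downward became 3 with array weights (whose estimation stopped before it converged), 2 with the length trend removed, 6 with median-ratio scaling without kaku4-2 replicate 3, and ranged from 0 to 8 with 1 library left out. Upward it became 1 with TPM scaling and 1 with quantile normalization, LHCA3 in both. The count with an adjusted p of at most 0.05 (limma) became 11 with array weights, where 24.5% of all genes had one. The median log2 fold change of the members, -0.47, was 0.00183 with TPM scaling, 0.0715 with quantile normalization, -0.0703 with the length trend removed, -0.25 with median-ratio and -0.0454 with TPM scaling without kaku4-2 replicate 3, and ranged from -0.62 to -0.31 with 1 library left out. The sign changed for 18 members with TPM scaling, 23 with quantile normalization and 10 with the length trend removed. Pseudocounts, filters, the prior variance and a fold from mean FPKM moved none of these counts.

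The number of paralog ratios that separated the genotypes, 3 of 10, ranged from 3 to 5 with 1 library left out (5 without kaku4-2 replicate 3 and 5 without WT replicate 1). The 9 other light-reaction genes past the cutoff, 7 downward and 2 upward, became 6 with TPM scaling, 1 downward and 5 upward, 5 with TPM scaling without kaku4-2 replicate 3, 5 with the replicate block, and 4 to 24 with 1 library left out: 20 without kaku4-2 replicate 1, 24 without kaku4-2 replicate 2, 15 without WT replicate 1, and 4 without WT replicate 2 or 3.

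Over all genes tested, libraries that share a replicate number did not deviate together (correlations of -0.16, -0.03 and -0.41 for numbers 1, 2 and 3), so the numbers were not taken as pairs. Across the 41 members, however, the difference between replicates 2 and 1 ran together in both genotypes (Pearson r = 0.85). With the replicate number as a block, the median over the members was -0.47 and 0 members passed in either direction, with 1017 of all genes passing downward and 706 upward. Over all genes, 1370 passed downward and 1037 upward on the deposited scale. These became 673 to 2660 and 546 to 1512 with 1 library left out, 297 and 2335 with TPM scaling, and 1981 and 2126 with array weights. The causes were not tested. With 3 libraries a genotype, changes smaller than about 0.55 to 1.24 on the log2 scale were not resolved for single members by this fit. Its variances are drawn toward those of genes of like abundance.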
